A study of Mus musculus with 2 samples.

Results

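The cells described here were tumour cells of mouse subcutaneous tumours that scored highest for 6 genes, Cdsn, Tenm4, Car6, Angptl6, Avil and Ndst4. Single-cell RNA sequencing (10x Genomics, 3' end counting) was done on tumours of mice on a serine/glycine-free diet (SG) and of mice on a control diet (CT), with 1 library per diet. The sources used here do not give the tumour line, the strain, sex and age of the mice, the time on the diet or how many mice made up a library. A tumour cell was a barcode with at least 500 unique molecular identifiers (UMIs, 1 per captured RNA molecule), at least 300 genes and at most 20% mitochondrial UMIs, with no UMI of the leukocyte gene Ptprc. It also needed at least 5 UMIs, and at least 10 per 10,000, of Hmga2 and Rhox5, a chromatin protein and a homeobox gene that mark these tumour cells. The score was the sum of the UMIs of the 6 genes per 10,000 UMIs of the cell, and the members were the top 10% of tumour cells over both libraries pooled. They numbered 2226 of 22257 tumour cells, out of 34471 cells that passed the filters and 35436 deposited barcodes.

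The members are a range of a continuous score and not a separate type. The threshold lay at 8.84 score UMIs per 10,000, with 8.8412 in the lowest member and 8.8394 in the highest cell left out. Within 10% of the threshold lay 525 cells, of which 251 were members and 274 were not. At the other end, 618 members (27.8%) had at least 2 times the threshold, up to 73.0 per 10,000. Of all tumour cells 37.9% scored 0, and the median score was 1.02. Only 3 members held fewer than 3 score UMIs.

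**Figure D1:**
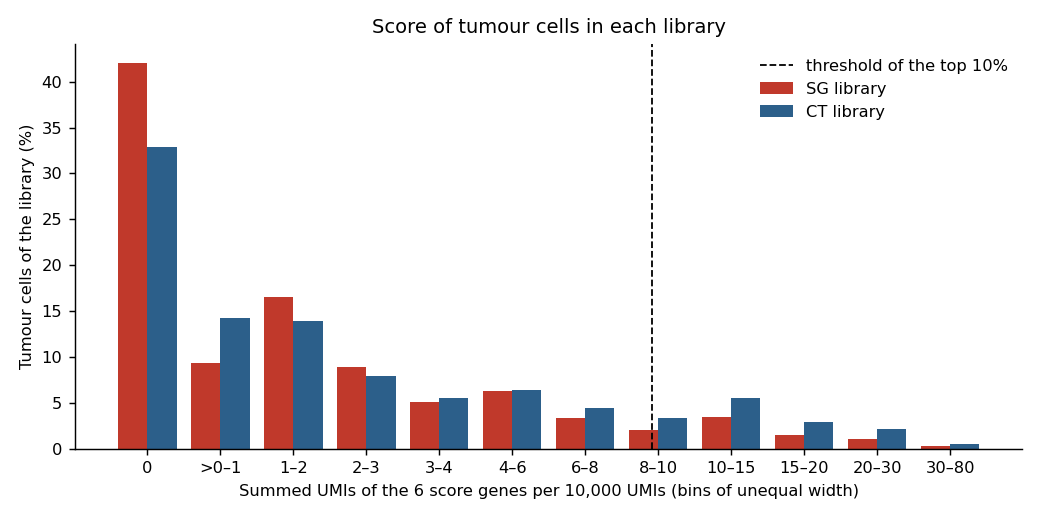
Share of the tumour cells of each library (vertical axis, %) by summed UMIs of the 6 score genes per 10,000 UMIs (horizontal axis, bins of unequal width), with SG bars left of CT bars. The dashed line marks the threshold of 8.84 per 10,000 inside the bin 8 to 10. Cells at 0 made up 42.0% of SG and 32.9% of CT tumour cells, and no gap separates the members from the cells below them.

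The integrated stress response is the programme that cells start when amino acids run short, when misfolded proteins fill the endoplasmic reticulum or when other stresses lead to phosphorylation of the initiation factor eIF2alpha. General translation falls, while the transcription factor ATF4 is made and switches on genes of amino acid uptake and synthesis, aminoacyl-tRNA synthetases and a further factor, CHOP, the product of Ddit3. CHOP is tied to growth arrest and, under lasting stress, to cell death, and GADD45A is a growth-arrest protein induced by DNA damage and by ATF4. In the RefSeq gene table Car6, Tenm4 and Avil carry the older names DOC1, Doc4 and DOC6, given to genes found downstream of CHOP in stressed mouse cells.

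The SG library held 173592046 UMIs in 20662 barcodes and the CT library 173785388 UMIs in 14774 barcodes. Members had a median of 10732 UMIs in SG and 14666 in CT, and the other tumour cells had 9428 in SG and 13004 in CT, so members were somewhat deeper than the rest in each library. The mitochondrial share had a median of 4.21% in SG members and 4.03% in the other SG tumour cells, and of 4.63% in CT members and 4.48% in the other CT tumour cells. The libraries shared 87 cell barcodes (0.589% of CT barcodes), none of them between members. Because the members were chosen from the same RNA counts, and because each diet had 1 library, no value below carries a test. Levels are CPM, the UMIs summed over a class of cells in 1 library and scaled to a common total, log2 ratios add 1 CPM to both levels, and intervals are 95% and cover counting error only.

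The 6 score genes have no common function. Cdsn encodes corneodesmosin, an adhesion protein of the outer epidermis. Tenm4 encodes a teneurin, a transmembrane protein of cell contacts, and Car6 the secreted carbonic anhydrase of saliva. Angptl6 encodes an angiopoietin-like secreted factor, Avil the actin-binding protein advillin, and Ndst4 an enzyme that deacetylates and sulphates heparan sulphate. The rule summed the UMIs of these genes, so how many of them a member holds describes the choice and supports nothing. At least 3 of the 6 genes had a UMI in 86.5% of SG members and in 8.44% of the other SG tumour cells. In CT the shares were 95% of members and 15.4% of the other tumour cells. All 6 were seen in 5.68% of SG members and in 17.5% of CT members.

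In SG, Tenm4 stood at 492 CPM in members and 34.5 CPM in the other tumour cells. In CT it stood at 584 CPM in members and 59.0 CPM in the others. Ndst4 stood at 598 CPM in SG members and 83.5 CPM in the other SG cells. In CT it stood at 487 CPM in members and 67.4 CPM in the others. Together these 2 genes supplied most of the score: Ndst4 gave 38.8% and Tenm4 32.0% of the score UMIs in SG members, and Ndst4 gave 31.0% and Tenm4 37.2% in CT members.

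Car6 reached 245 CPM in SG members against 13.3 CPM in the other SG tumour cells, and 243 CPM in CT members against 15.3 CPM in the others. Angptl6 reached 131 CPM in SG members against 23.1 CPM in the others, and 148 CPM in CT members against 28.3 CPM in the others. Cdsn, for which the group of cells is named, was a small part of the score. It stood at 47.3 CPM in SG members against 3.63 CPM in the others, and at 56.3 CPM in CT members against 5.99 CPM in the others, and it had a UMI in 36.4% of SG and 50.6% of CT members. Avil stood at 26.7 CPM in SG members against 2.0 CPM in the others, and at 50.2 CPM in CT members against 3.70 CPM in the others. The exons of Avil overlap those of Tsfm, a mitochondrial translation factor gene on the opposite strand, and the sources used here do not state whether counting used the strand. Tsfm itself had log2 ratios of -0.056 in SG and 0.072 in CT.

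These levels are what the rule used. The score genes were themselves chosen with earlier results of these data known. Leaving each out in turn is thus no independent test of whether they rise together, and its values are given as a description. Choosing the top 10% by the other 5 genes left the remaining gene out of that cut. Each gene was then still higher in the chosen cells in both libraries. The smallest log2 ratios were those of Angptl6, at 2.18 (2.09 to 2.28) in SG and 2.04 (1.97 to 2.11) in CT, and of Ndst4, at 2.2 (2.15 to 2.25) in SG and 2.32 (2.28 to 2.36) in CT. The highest was that of Car6, at 3.46 (3.37 to 3.55) in SG, with 3.17 (3.10 to 3.24) in CT. Leaving out Cdsn kept 96.5% of SG and 97.0% of CT members, while leaving out Ndst4 kept 76.3% of SG and 87.8% of CT members, and leaving out Tenm4 kept 86.6% of SG and 81.1% of CT members. In leukocytes of the same libraries, which had a median of 2031 UMIs in SG and 3473 in CT, each score gene had a UMI in 0.141% to 1.98% of cells. Whether these UMIs came from free RNA was not tested, and the leukocytes' Avil level, at 4.13 CPM in SG and 4.85 CPM in CT, was above that of the other tumour cells given above.

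The genes lie on different chromosomes. In the GENCODE M21 annotation of the GRCm38 build, Cdsn lies at chr17:35552128-35557180, Tenm4 at chr7:96171246-96911093, Car6 at chr4:150187015-150201332, Angptl6 at chr9:20873808-20879727 and Ndst4 at chr3:125404076-125728899. Avil lies at chr10:127000709-127020994, close to Ddit3 at chr10:127290774-127296288 on the same strand. Of the 17 tested genes within 500000 bases of Avil other than Avil, Ddit3 alone was 2-fold higher in members. The others had log2 ratios between -0.46 and 0.51 in SG and between -0.39 and 0.60 in CT. The highest of them was Mettl1, a tRNA methyltransferase gene (0.51 in SG and 0.60 in CT), followed in SG by Shmt2, the mitochondrial serine hydroxymethyltransferase (0.45 in SG and 0.24 in CT), while Ctdsp2 had -0.23 in SG and -0.35 in CT and Cdk4 -0.14 in SG and -0.28 in CT. Over the tested genes of a chromosome, the median log2 ratio of members over other tumour cells ran between -0.037 and 0.054 in SG and between -0.090 and 0.041 in CT. No chromosome as a whole was thus shifted by as much as 0.1 in either library.

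Stress genes were high in members led by each of the main score genes. Ndst4 supplied the most score UMIs in 44.4% of SG and 31.8% of CT members, Tenm4 in 30.8% of SG and 47.0% of CT members, and Car6 in 12.4% of SG and 10.2% of CT members. Ddit3 stood at 248 CPM in Ndst4-led, 283 CPM in Tenm4-led and 302 CPM in Car6-led SG members. In CT it stood at 406, 426 and 479.9 CPM in the same order. The level of the whole stress response list was higher in Car6-led members, with 5974 CPM in SG and 5876 CPM in CT, than in Ndst4-led members, with 4556 CPM in SG and 4957 CPM in CT. Members that held no Tenm4 UMI were few, 91 in SG and 36 in CT, and shallow, with medians of 7764 and 9588 UMIs. Their Ddit3 level was 133 CPM in SG and 345 CPM in CT, below the 274 CPM of SG and the 430.4 CPM of CT members with Tenm4.

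Ddit3 and Gadd45a were higher in members than in the other tumour cells of both libraries. Neither is in the score, but both were chosen for this comparison with earlier results of these data known. Ddit3 is also among the markers by which the group was described. Their levels are thus a description and no independent support. Ddit3 stood at 264 CPM in SG members and 99.4 CPM in the other SG tumour cells, a log2 ratio of 1.40 (1.34 to 1.46). In CT it stood at 429 CPM in members and 140.0 CPM in the others, a log2 ratio of 1.61 (1.57 to 1.64). Gadd45a stood at 155 CPM in SG members and 40.0 CPM in the others, a log2 ratio of 1.93 (1.85 to 2.01). In CT it stood at 149 CPM in members and 40.4 CPM in the others, a log2 ratio of 1.86 (1.80 to 1.92). Members of either diet were thus at about the same Gadd45a level, while their Ddit3 level was lower in SG.

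The difference was also seen as a share of cells at equal depth. With cells thinned to 3000 UMIs, which left out 7 SG and 5 CT members and 83 SG and 27 CT other tumour cells of lower depth, 50.4% of SG members and 21.7% of the other SG tumour cells had a Ddit3 UMI, and 66.1% of CT members and 28.5% of the others. For Gadd45a the shares were 32.7% of SG members and 10.8% of the others, and 34% of CT members and 10.7% of the others. Unthinned, 80.8% of SG members and 46.7% of the others had a Ddit3 UMI, and 95.2% of CT members and 60.7% of the others. In leukocytes, at their lower depth, Ddit3 had a UMI in 9.23% of SG and 17.0% of CT cells. Ddit3 overlaps exons of Mars, a tRNA synthetase gene on the opposite strand whose log2 ratio was 0.27 in both libraries, and Gadd45a overlaps the transcript E230016M11Rik.

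Differences were also seen below the threshold of the score. Ddit3 stood at 78.2 CPM in SG cells that scored 0, 97.0 CPM between the 50th and 60th percentile, 167 CPM between the 80th and 90th, and 321 CPM in the top 1%. In CT the values at these steps were 85.2, 127, 288 and 479 CPM. Gadd45a stood at 32.2, 35.0, 78.9 and 203 CPM at these steps in SG, and at 28, 33.2, 81.6 and 174 CPM in CT. Gadd45a was not higher at each step: between a score above 0 and the median it stood at 29.0 CPM in SG and 25.8 CPM in CT, below cells that scored 0, and in CT it was flat at the upper end, with 175 CPM between the 95th and 99th percentile. With cells thinned to 3000 UMIs, Ddit3 stood at 78.5 CPM in SG cells that scored 0 and at 312 CPM in the top 1%, close to the unthinned values.

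**Figure D2:**
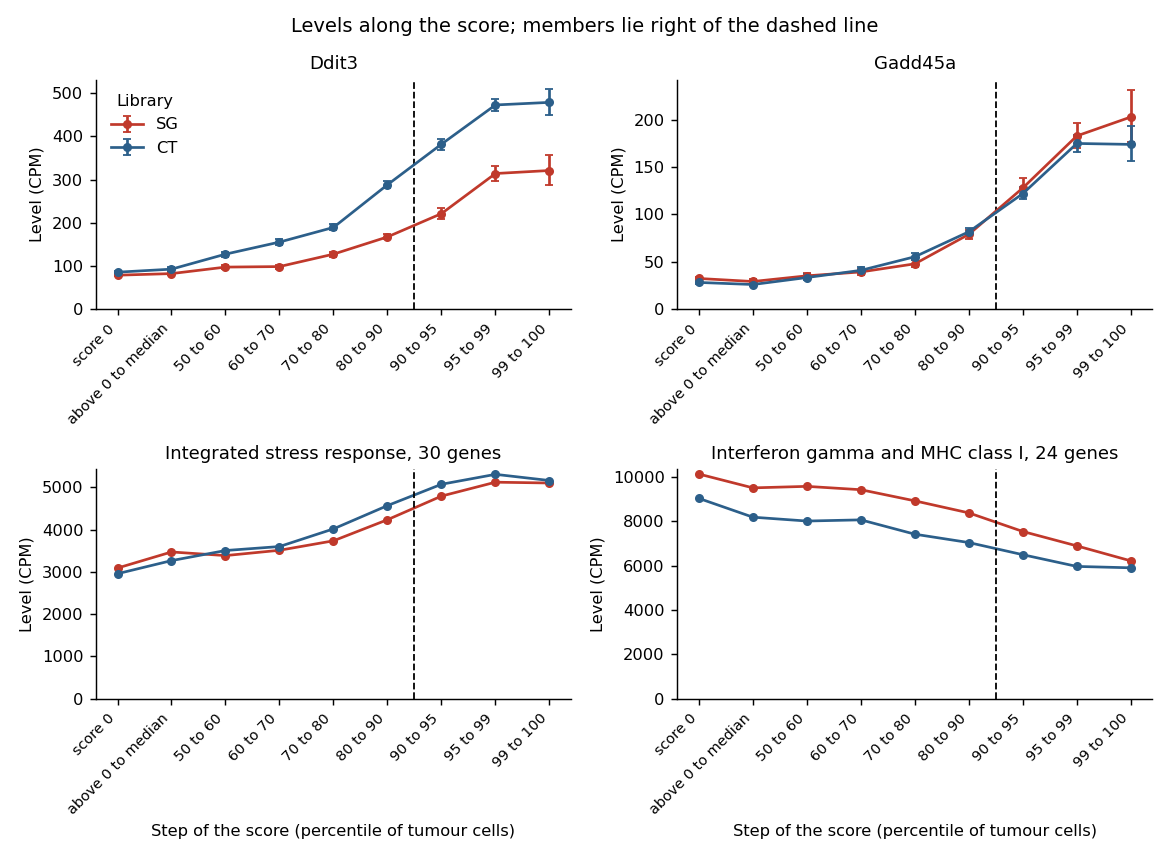
Levels (CPM, vertical axes from 0) in steps of the score (horizontal axes, percentiles of all tumour cells) for Ddit3, Gadd45a and the summed integrated stress response and interferon gamma lists, in SG and CT. Bars on the single genes are 95% counting intervals, and members lie right of the dashed line. Ddit3, Gadd45a and the stress response list climb between the 50th and 99th percentile in both libraries; at the top step the stress response list stands at 5102 CPM in SG and 5161 CPM in CT, slightly under the step before it, with 5121 CPM in SG and 5307 CPM in CT. The interferon gamma list falls to 6210.0 CPM in SG and 5897 CPM in CT at the top step.

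As a group, the integrated stress response list was higher in members. Of its 30 genes 24 reached 10 CPM in members or in other tumour cells of each library, and Atf3, Cth, Ddit4, Fgf21, Gdf15 and Stc2 did not. All 24 were higher in members in both libraries by some amount, against 39.5% of the 8269 genes tested, and 4 of them were 2-fold higher in both, against 0.919% of all tested genes (76 genes). One of the 24, Sesn2, reached the limit in members alone, so it could only count as higher. Of all tested genes 186 reached it in members alone in at least 1 library, and 430 in the other tumour cells alone. The count of 76 genes was 43 for the top 20% of the score and 39 with a pseudocount of 10 CPM. The median log2 ratio of the list was 0.58 in SG and 0.59 in CT, against -0.001 and -0.024 over all tested genes. Summed, the list made up 4941 CPM in SG members and 3442 CPM in the other SG tumour cells, and 5179 CPM in CT members and 3504 CPM in the others. Per cell, its median was 48.7 per 10,000 UMIs in SG members and 31.2 in the others, and 51.4 in CT members and 32.8 in the others.

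The 4 genes past 2-fold included Ddit3 itself, the marker already described, which is counted here again. Trib3, a pseudokinase gene induced by ATF4 and CHOP, stood at 74.0 CPM in SG members and 20.8 CPM in the other SG tumour cells, and at 77.9 CPM in CT members and 25.6 CPM in the others. Aldh1l2, a mitochondrial folate enzyme, stood at 95.8 CPM in SG members and 33.8 CPM in the others, and at 97.0 CPM in CT members and 32.5 CPM in the others. Ppp1r15a, which brings the phosphatase that reverses eIF2alpha phosphorylation, stood at 134 CPM in SG members and 53.7 CPM in the others, and at 144 CPM in CT members and 49.7 CPM in the others. Near 2-fold were Chac1, a glutathione-degrading enzyme (log2 0.98 in SG and 1.1 in CT), and Sesn2, a stress sensor that restrains mTORC1, which had 8.14 CPM in SG and 8.39 CPM in CT in the other tumour cells (0.92 in SG and 0.94 in CT). Smaller ratios were found for Asns, the asparagine synthetase (0.66 in both libraries), for Atf4 (0.55 in SG and 0.60 in CT) and for Nupr1, a stress-induced chromatin protein (0.80 in SG and 0.60 in CT). The smallest was that of Atf5, another factor of the response, at 0.084 in both libraries.

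A short element bound by ATF4 with C/EBP partners, TGATGNAAN on either strand, was looked for in the RefSeq promoters of GRCm38.p6, each reaching 250 bases before to 50 after a gene's start. It was present in 3.95% of all 32851 promoters, and in 4.50% of the 27025 genes with one. Of the 26 genes of the stress list with a promoter in the table it was present in 11 (42.3%), and of 14 aminoacyl-tRNA synthetase genes in 5 (35.7%). Of the members' 15 highest genes outside the score, 11 had a promoter in the table and 1 of these held it (9.09%), and of the 6 among the 15 lowest 1 did (16.7%). Of 5 score genes it was present in Avil alone, and of the promoters of Ddit3 and Gadd45a in neither. Searched on both strands and separately, CACGTG was present in 8.09% of all genes with a promoter, in 3 of the 26 stress list genes (11.5%), in 4 of the 14 synthetase genes (28.6%) and in 3 of the 11 highest genes (27.3%). The promoters of the stress list genes Trib3, Chac1, Asns and Nupr1 and of the score gene Avil are shown because all 5 genes were higher in members and hold the element, which is in capitals. A match of letters is a description of the window and no evidence of binding.
Trib3 (GRCm38.p6, chr2:152344011-152344310, minus strand): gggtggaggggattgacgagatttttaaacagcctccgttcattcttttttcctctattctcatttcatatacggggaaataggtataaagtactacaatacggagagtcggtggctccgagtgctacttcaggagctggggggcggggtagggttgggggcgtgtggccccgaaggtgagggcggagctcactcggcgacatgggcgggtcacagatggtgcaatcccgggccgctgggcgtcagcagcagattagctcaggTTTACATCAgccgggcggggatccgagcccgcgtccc
Chac1 (GRCm38.p6, chr2:119350992-119351291, plus strand): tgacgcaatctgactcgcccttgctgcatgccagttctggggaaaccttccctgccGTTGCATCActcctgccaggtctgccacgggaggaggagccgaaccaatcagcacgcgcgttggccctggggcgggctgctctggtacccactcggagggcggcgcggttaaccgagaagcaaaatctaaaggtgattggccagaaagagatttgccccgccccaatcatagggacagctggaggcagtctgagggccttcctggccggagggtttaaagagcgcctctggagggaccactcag
Asns (GRCm38.p6, chr6:7693160-7693459, minus strand): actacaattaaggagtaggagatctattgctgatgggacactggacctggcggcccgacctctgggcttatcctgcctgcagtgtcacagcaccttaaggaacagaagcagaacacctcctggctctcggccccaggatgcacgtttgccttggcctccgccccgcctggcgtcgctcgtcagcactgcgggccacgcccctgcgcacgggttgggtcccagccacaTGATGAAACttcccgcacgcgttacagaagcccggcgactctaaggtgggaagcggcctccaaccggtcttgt
Nupr1 (GRCm38.p6, chr7:126625421-126625720, minus strand): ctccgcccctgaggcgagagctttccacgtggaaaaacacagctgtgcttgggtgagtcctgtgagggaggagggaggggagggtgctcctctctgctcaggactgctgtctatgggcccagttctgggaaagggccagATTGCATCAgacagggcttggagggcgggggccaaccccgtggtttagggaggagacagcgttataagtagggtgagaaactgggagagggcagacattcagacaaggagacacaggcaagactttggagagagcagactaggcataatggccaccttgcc
Avil (GRCm38.p6, chr10:127000459-127000758, plus strand): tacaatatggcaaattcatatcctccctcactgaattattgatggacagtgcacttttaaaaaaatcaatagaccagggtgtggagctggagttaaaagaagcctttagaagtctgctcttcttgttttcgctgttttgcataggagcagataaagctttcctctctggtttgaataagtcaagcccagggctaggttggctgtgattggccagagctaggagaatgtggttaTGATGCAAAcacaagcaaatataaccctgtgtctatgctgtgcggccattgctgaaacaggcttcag

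Genes of amino acid supply were higher in members as well. Of 20 aminoacyl-tRNA synthetase genes tested, which charge tRNAs with amino acids, 15 were higher and 5 lower in both libraries, with a median log2 ratio of 0.52 in SG and 0.49 in CT. None was 2-fold higher. The higher ones included Wars (0.84 in SG and 0.87 in CT), Aars (0.86 in SG and 0.80 in CT) and Lars (0.78 in SG and 0.79 in CT), for tryptophan, alanine and leucine. Of 12 amino acid transporters tested 10 (83.3%) were higher and 2 (16.7%) lower in both libraries, with medians of 0.49 and 0.51. Slc7a1, a carrier of arginine and lysine, stood at 178 CPM in SG members and 101 CPM in the others, and at 188 CPM in CT members and 105 CPM in the others. Slc1a5, the main glutamine carrier, stood at 118 CPM in SG members and 70.7 CPM in the others, and at 139 CPM in CT members and 80.4 CPM in the others. The count includes Slc6a9, the glycine transporter, which reached the 10 CPM limit in members alone, with 5.91 CPM in SG and 6.82 CPM in CT in the other tumour cells, and so could only count as higher.

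Serine, glycine and one-carbon genes, whose amino acids the SG diet lacks, were mixed. Of 16 tested 10 (62.5%) were higher and 5 (31.2%) lower in both libraries, against 39.5% and 43.6% over all tested genes. Their medians were 0.27 in SG and 0.29 in CT. Among the 16, 1 reached the 10 CPM limit in the other tumour cells alone in at least 1 library, so it could not count as higher. Besides Aldh1l2, Mthfd2, a mitochondrial folate enzyme, had log2 ratios of 0.73 in SG and 0.70 in CT. Psph, the last enzyme of serine synthesis, had 0.56 in SG and 0.66 in CT, and Phgdh, the first, had 0.36 in SG and 0.39 in CT. Psat1, the step between them, had 0.18 in SG and 0.35 in CT. Tyms, which makes thymidylate for DNA synthesis, was lower, at -0.59 in SG and -0.68 in CT.

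Endoplasmic reticulum chaperones showed a smaller shift than the ATF4 and CHOP genes. Of 20 genes tested 17 (85.0%) were higher and 2 (10.0%) lower in both libraries, against 39.5% and 43.6% over all tested genes. Their medians were 0.27 in SG and 0.34 in CT. Hspa5, the main chaperone of that compartment, was past 2-fold, with 1111 CPM in SG members and 525 CPM in the others, and 1334 CPM in CT members and 635 CPM in the others. Ern1, which encodes the stress sensor IRE1, had log2 ratios of 0.93 in SG and 0.90 in CT, and Xbp1, its target transcript, had 0.57 in SG and 0.44 in CT. Of 16 tested p53 target and DNA damage genes 10 (62.5%) were higher and 5 (31.2%) lower in both libraries, with medians of 0.21 and 0.33, and Gadd45a alone was past 2-fold in both. Eda2r and Sesn2 reached the 10 CPM limit in members alone, so they could only count as higher. With the limit set over all tumour cells 9 of 15 were higher, with medians of 0.18 and 0.17. Plk2, a stress-responsive kinase, had 1.1 in SG and 0.97 in CT, Cdkn1a, the cell cycle inhibitor p21, had 0.70 in SG and 0.63 in CT, and Phlda3, a p53 target, had -0.29 in SG and -0.38 in CT. The relatives Gadd45b and Gadd45g were lower in members, Gadd45b at -0.83 in SG and -0.52 in CT, and Gadd45g at -0.94 in SG and -0.50 in CT. Of 13 apoptosis regulators tested 3 (23.1%) were higher and 8 (61.5%) lower in both libraries, with medians of -0.069 and -0.094. The highest was Bbc3, a cell death activator, at 0.61 in SG and 0.65 in CT.

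**Figure D3:**
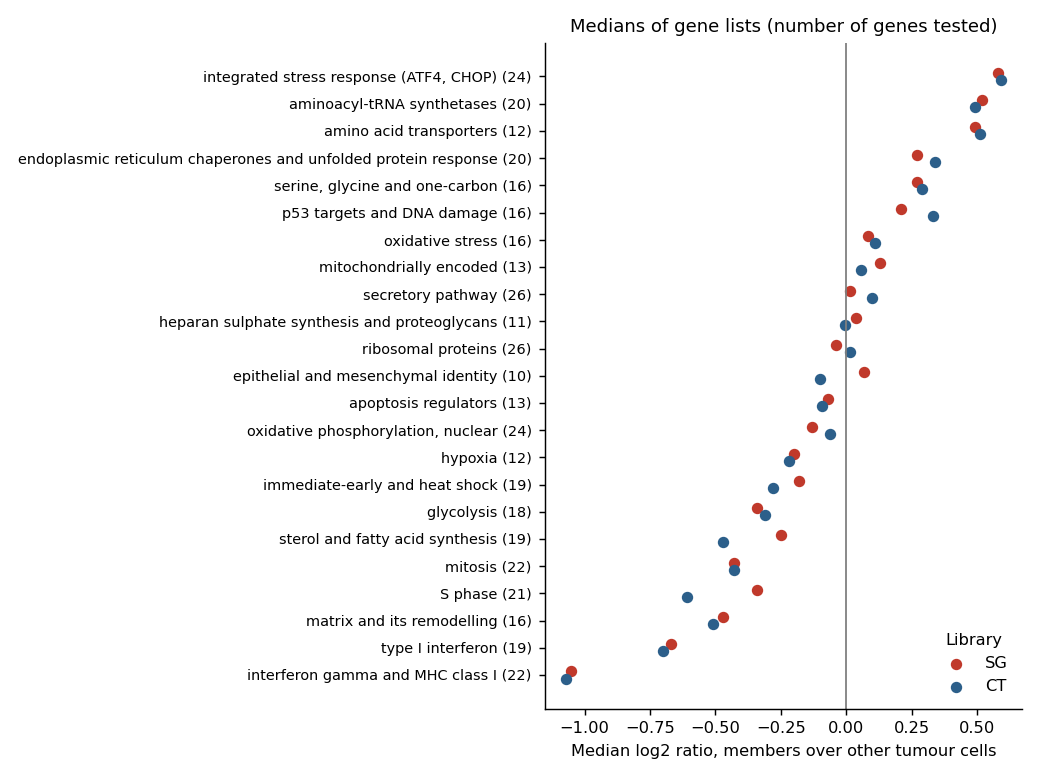
Median log2 ratio of members over other tumour cells (horizontal axis) for each gene list with at least 10 tested genes (vertical axis, number tested in brackets), with SG above CT. The stress response list lies highest, at 0.58 in SG and 0.59 in CT, and the interferon gamma list lowest, at -1.05 in SG and -1.07 in CT.

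Among all genes outside the score, the members' highest ratios belonged to genes of unlike function. D5Ertd615e, a long non-coding RNA gene, stood at 72.4 CPM in SG members and 4.89 CPM in the other SG tumour cells, and at 72.5 CPM in CT members and 5.71 CPM in the others. Elmo1, a partner of DOCK proteins in Rac activation, stood at 55.7 CPM in SG members and 4.85 CPM in the others, and at 63.8 CPM in CT members and 5.01 CPM in the others. Both had log2 ratios above 3 in both libraries, in the range of the score genes, and both passed the limit on low values through the members alone. Along the score D5Ertd615e climbed with the same shape in both libraries, with 1.65 CPM in cells of score 0 in each and with 169.7 CPM in SG and 173 CPM in CT in the top 1%.

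The 13 other highest genes, by the smaller of their 2 log2 ratios, ran between 1.54 and 2.81 in SG and between 1.56 and 2.55 in CT. They comprised Cox6a2, the muscle form of a cytochrome oxidase subunit, Fam171b, Paqr3, a Golgi protein that restrains Raf, and the predicted genes Gm17173, Gm867 and Gm34719. Further ones were Gadd45a, Trib3, Sdk1, a cell adhesion protein gene, Ldlrad3 and Erlin1, which acts in degradation at the endoplasmic reticulum. Cox6a2, Fam171b, Paqr3, Gm17173, Gm867, Gm34719, Sdk1 and Ldlrad3 stood below 20 CPM in the other tumour cells of both libraries. They passed the 20 CPM limit for named genes through the members alone, so they could only count as higher. Grem1, a secreted BMP antagonist, stood at 122 CPM in SG members and 34.4 CPM in the others, and at 121 CPM in CT members and 35.9 CPM in the others. Ptgs2, the inducible enzyme of prostaglandin synthesis, stood at 245 CPM in SG members and 72.0 CPM in the others, and at 188 CPM in CT members and 58.6 CPM in the others. Paqr3 and Bmp2k share exon positions on opposite strands, so their counts may not be separate.

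**Figure D4:**
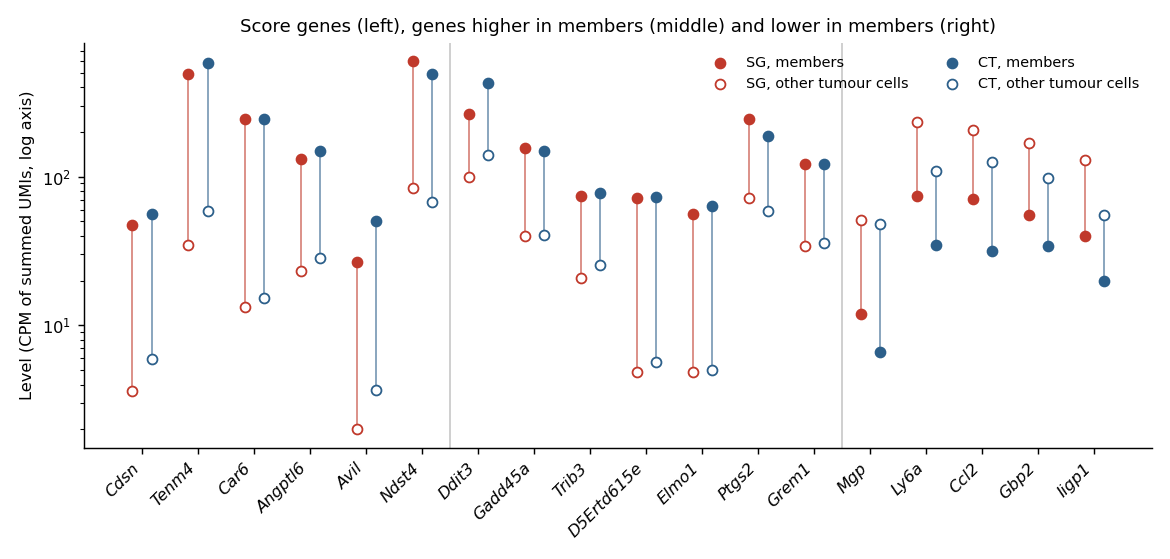
Levels (CPM of summed UMIs, log axis) of the score genes and of genes higher or lower in members, as filled points for members and open points for other tumour cells, with SG left of CT for each gene. Filled points lie above open ones for the score genes and for Ddit3 to Grem1, and below them for Mgp to Iigp1, in both libraries.

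Interferon-induced genes were among the genes lower in members. Of all tested genes 49 (0.593%) were 2-fold lower in both libraries. That count depended on the settings, with 8 for the top 20% of the score, 12 with a pseudocount of 10 CPM, 22 with the thinned score, 100 for the top 5% and 116 outside mitosis. The lowest of the named genes was Mgp, the matrix Gla protein, with 11.9 CPM in SG members and 50.9 CPM in the others, and 6.64 CPM in CT members and 47.8 CPM in the others. The 49 included 12 of the 22 tested genes that respond to interferon gamma or act in MHC class I presentation. Of these 22, 20 were lower in both libraries by some amount, against 43.6% of all tested genes, and none was higher in both. Among the 22, 2 reached the 10 CPM limit in the other tumour cells alone in at least 1 library, so they could not count as higher. Gbp2, an interferon-induced GTPase, stood at 55.4 CPM in SG members and 168 CPM in the other SG tumour cells, and at 34.2 CPM in CT members and 97.4 CPM in the others. Iigp1, another, stood at 40.2 CPM in SG members and 129.9 CPM in the others, and at 19.9 CPM in CT members and 55.5 CPM in the others. Psmb9, a subunit of the immunoproteasome that cuts peptides for MHC class I, stood at 137 CPM in SG members and 305 CPM in the others, and at 97.5 CPM in CT members and 225 CPM in the others. Irf1, a transcription factor of the response, had log2 ratios of -1.32 in SG and -1.17 in CT.

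Type I interferon genes were lower too, 18 of 19 tested (94.7%) in both libraries, against 43.6% of all tested genes. Their medians were -0.67 in SG and -0.70 in CT. Among the 19, 4 reached the 10 CPM limit in the other tumour cells alone in at least 1 library, so they could not count as higher. Ly6a, the surface protein Sca-1, stood at 74.2 CPM in SG members and 234 CPM in the others, and at 34.6 CPM in CT members and 109 CPM in the others. Along the score Ly6a stood at 279 CPM in SG cells of score 0 and 58.1 CPM in the top 1%, and at 136 and 30.9 CPM in CT. Among the 15 lowest genes were also Ccl2, a monocyte-attracting chemokine (log2 -1.52 in SG and -1.96 in CT), and Id1, an inhibitor of differentiation induced by BMP signals (-1.44 in SG and -1.56 in CT). Ly6c1, Gbp2b, Gbp3, Gbp4, Rarres2 (chemerin), Casp12, Olfml2b, Serping1 (the C1 inhibitor) and Cryab (a small heat shock protein) completed them, between -1.72 and -1.33 in SG and between -2.01 and -1.34 in CT. Mgp, Ly6c1, Rarres2, Id1, Casp12, Olfml2b and Serping1 stood below 20 CPM in members of both libraries, and Iigp1 and Gbp4 in CT members. There they passed the 20 CPM limit for named genes through the other tumour cells alone, so they could not count as higher. The Gbp genes are close relatives, so reads may have been divided between them.

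Cycling genes were lower in members. All 22 mitosis genes tested were lower in both libraries, with a median log2 ratio of -0.43 in each, and 20 of 21 S phase genes (95.2%) were, with medians of -0.34 in SG and -0.61 in CT. Over all tested genes 43.6% were lower in both. Plk1, a mitotic kinase, stood at 19.5 CPM in SG members and 35.0 CPM in the others, and at 16.2 CPM in CT members and 26.0 CPM in the others. Mcm6, part of the replication helicase, stood at 50.2 CPM in SG members and 86.3 CPM in the others, and at 33.6 CPM in CT members and 85.0 CPM in the others. Cells with under 5 mitosis list UMIs per 10,000 made up 59.3% of SG members and 47.9% of the other SG tumour cells, and 71.9% of CT members and 57.7% of the others. Within those cells Ddit3 had log2 ratios of 1.62 in SG and 1.60 in CT, and Gadd45a 1.85 in SG and 1.67 in CT.

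Glycolysis genes were lower in 13 of 18 (72.2%) and higher in 3 of 18 cases (16.7%) in both libraries, against 43.6% and 39.5% over all tested genes. Their medians were -0.34 in SG and -0.31 in CT, against medians of -0.20 and -0.22 for 12 hypoxia genes. Of the glycolysis genes 1, and of the hypoxia genes 2, reached the 10 CPM limit in the other tumour cells alone in at least 1 library. They could not count as higher, and Ankrd37, named below, is among them. Summed, the hypoxia list stood at 1177 CPM in SG members and 1251 CPM in the others, but at 888 CPM in CT members and 835 CPM in the others. Per cell its median was higher in members, at 10.2 per 10,000 UMIs in SG and 8.15 in CT, against 9.09 and 6.69 in the others. Within the hypoxia list the members differed in direction. Ankrd37 and Bnip3, induced by hypoxia factors, had log2 ratios of -1.40 and -0.86 in SG and of -1.70 and -1.12 in CT. Vegfa, the vessel growth factor that ATF4 also induces, had 0.75 in SG and 0.78 in CT, and Ero1l, an oxidase of protein folding that CHOP also induces, had 0.77 in SG and 1.0 in CT.

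Markers of leukocytes and fibroblasts were lower in members than in the other tumour cells. Those of endothelial cells and pericytes were higher, and 5 of the 8 keratinocyte markers were at 0. The 36 genes of a mixed epidermal and desmosome list summed to 502 CPM in SG members and 468 CPM in the others, and to 628 CPM in CT members and 632 CPM in the others. Of these 4 reached the 10 CPM limit and 17 had no UMI in members of either library. Most of the sum came from Lgals7, a galectin gene, with 283 CPM in SG members and 218 CPM in the others and 455 CPM in CT members and 364 CPM in the others, and from Krt20, a keratin gene, with 183 CPM in SG members and 191 CPM in the others and 111 CPM in CT members and 157 CPM in the others. The 8 keratinocyte markers summed to 7.59 CPM in SG members and 8.23 CPM in the others, and to 5.98 CPM in CT members and 6.88 CPM in the others. Krt5, Krt1, Krt15, Dsg3 and Lor had no UMI in members, which allows up to 0.0941 CPM over both libraries (3 counts). Leukocyte markers other than Ptprc summed to 35.5 CPM in SG members and 38.2 CPM in the others, and to 17.4 CPM in CT members and 25.5 CPM in the others. Fibroblast markers summed to 73.6 CPM in SG members and 159 CPM in the others, and to 67.1 CPM in CT members and 99.4 CPM in the others. For endothelial and pericyte markers the sums were 9.72 and 8.45 CPM in SG, and 7.26 and 4.96 CPM in CT. For B and plasma cell markers they were 11.2 and 105 CPM in SG, and 1.76 and 4.69 CPM in CT. The gate genes Hmga2 and Rhox5 had medians of 32.2 per 10,000 in SG members and 23.7 in the others, and of 30.6 and 24.9 in CT. In cells without any leukocyte marker UMI, 139 members in SG and 298 in CT, the Ddit3 ratio was 1.5 in SG, and Gadd45a had 1.64. That cut kept 15.2% of SG and 22.7% of CT members, and 15.1% of the other SG and 23.9% of the other CT tumour cells. The leukocyte markers summed above had an upper quartile of 0 per cell in members. The cut thus used a wider set of genes than those markers, and its shares do not measure them.

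The members also fell into 7 other programmes of the same tumours, each scored with its own genes and cut at the top 10%, and in 5 of the 7 the members' share was below that of the other tumour cells in both libraries, outside its counting interval. Of SG members 3.38% were also in the interferon class, against 13.6% of the other SG tumour cells, and of CT members 2.37%, against 7.24% of the others. The class of Cp, Aspn and Ogn held 5.13% of SG members and 13.6% of the others, and 1.15% of CT members and 7.24% of the others. For the hypoxic class the shares were 5.68% of SG members and 14.4% of the others, and 2.29% of CT members and 5.95% of the others. The median score of that class was nevertheless higher in members, at 3.64 per 10,000 in SG and 3.02 in CT, against 2.94 and 2.28 in the others. The class of Lama2 and Elovl6 held 3.93% of SG members and 7.70% of the others, and 4.27% of CT members and 14.5% of the others, and the mitotic class 7.53% of SG members and 12.3% of the others, and 4.96% of CT members and 8.10% of the others. In SG the members' interval held the others' share for the remaining classes. The class of Dlgap2, Sorcs2 and Gria1 held 4.69% (3.42 to 6.27) of SG members and 5.02% of the others, and 13.7% (11.8 to 15.6) of CT members and 16.5% of the others. The class of Gadd45b and Cxcl1 held 11.9% (9.87 to 14.2) of SG members and 12.3% of the others, and 4.73% of CT members and 7.64% of the others. That class and the hypoxic class were the other ones in which Ddit3 was higher than outside in both libraries: it stood at 208 CPM in SG and 265 CPM in CT in the first, and at 194 CPM and 246 CPM in the second, below the members' 264 CPM and 429 CPM. The summed stress response list reached 3775 CPM in SG and 3901 CPM in CT in the Gadd45b and Cxcl1 class, against 4941 CPM and 5179 CPM in the members.

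Members were a smaller share of the tumour cells on the serine/glycine-free diet. They were 916 of 12228 SG tumour cells (7.49%, Clopper-Pearson interval 7.03 to 7.97) and 1310 of 10029 CT tumour cells (13.1%, 12.4 to 13.7), a ratio of 0.573 (0.529 to 0.621). The ratio was 0.623 with the score taken from cells thinned to 3000 UMIs, 0.520 for the top 5% and 0.696 for the top 20%. Since the rule cuts a score whose genes differ between the libraries, fewer cells in the state and lower levels of the score genes cannot be told apart. With 1 library per diet, neither can the diet and the library.

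Within each class the 6 score genes differed in their ratio between the diets. Both classes are cut by the summed score of these genes, and the cut took 13.1% of CT but 7.49% of SG tumour cells. The ratios of score genes within a class thus depend on the cut, and ratios over all tumour cells are not given here. In the other tumour cells the log2 ratio of SG over CT was -0.76 for Tenm4, -0.64 for Avil, -0.59 for Cdsn, -0.28 for Angptl6 and -0.19 for Car6, but 0.31 for Ndst4. In the members it was -0.25 for Tenm4, -0.89 for Avil, -0.25 for Cdsn, -0.18 for Angptl6, 0.012 for Car6 and 0.30 for Ndst4. With Ndst4 left out of the score the ratio of shares was 0.505. Ddit3 was lower in SG in members, with a log2 ratio of -0.70 (-0.76 to -0.64), and in the other tumour cells, with -0.49. Gadd45a had 0.058 (-0.028 to 0.14) in members and -0.013 in the others, so its interval in members includes 0. The stress response list had a median log2 ratio of SG over CT of -0.020 in members, with values between -0.086 and 0.046 over the alternatives, and 0.046 in the others, against 0.057 and 0.024 over all genes tested.

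Of 8251 genes tested in members, 253 (3.07%) were at least 1.5-fold higher and 73 (0.885%) at least 1.5-fold lower in SG. A gene needed 10 CPM in members of 1 diet only, so it could pass through its higher side alone. With mitochondrial and ribosomal protein genes left out of the CPM the counts were 201 and 111, with a pseudocount of 10 CPM 95 and 31, without a filter on low values 636 and 256, and in cells with no leukocyte marker UMI 513 and 293. In the other tumour cells 129 of 8379 genes (1.54%) were higher and 73 (0.871%) lower. Of the genes past the fold in members, 85 of the higher and 34 of the lower ones were past it in the other tumour cells too. By list, 10 of 21 interferon gamma genes, 11 of 19 sterol and fatty acid genes and 7 of 21 S phase genes were higher in SG members, with medians of 0.49, 0.59 and 0.49. Their medians in the other tumour cells were 0.43, 0.45 and 0.17. Of the 24 stress response genes tested for diet none was higher and 1, Ddit3, was lower.

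The highest ratios in members were those of genes usually made by antigen-presenting cells and macrophages. H2-Aa, an MHC class II chain, stood at 32.6 CPM in SG members and 4.32 CPM in CT members. Lyz2, the macrophage lysozyme, stood at 99.1 CPM in SG members and 24.7 CPM in CT members, and Apoe at 77.0 CPM in SG members and 24.3 CPM in CT members. H2-Ab1, H2-Eb1 and Cd74 were of the same kind, with log2 ratios of 2.47, 2.46 and 1.63. H2-Aa, H2-Ab1 and H2-Eb1 stood below 20 CPM in CT members. They passed the 20 CPM limit for named genes through SG members alone, so they could only count as higher. The 10 macrophage and monocyte markers summed to 242 CPM in SG members and 75.8 CPM in CT members, and to 254 CPM in the other SG and 151 CPM in the other CT tumour cells. The 8 dendritic cell markers summed to 148 CPM in SG members and 32.6 CPM in CT members. These sums contain genes named here, Lyz2 and Apoe in the first and MHC class II genes in the second. They thus had to move with those genes and are no separate evidence, and their part in the result was not tested.

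Some genes had a larger ratio in members than in the other tumour cells, a difference that was not tested. Dkk2, a secreted Wnt modulator, stood at 48.6 CPM in SG and 16.6 CPM in CT members, but at 57.7 CPM in the other SG and 67.9 CPM in the other CT tumour cells. Bmp2, a secreted bone morphogenetic protein, stood at 35.4 CPM in SG and 15.2 CPM in CT members, but at 24.7 CPM in the other SG and 31.9 CPM in the other CT cells. Aldh3a1, an aldehyde dehydrogenase, stood at 22.0 CPM in SG and 8.97 CPM in CT members, with 40.7 CPM in the other SG and 40.9 CPM in the other CT cells. All 3 were thus lower in members than in other tumour cells in CT, with log2 ratios of -1.97, -1.02 and -2.07, and less so or not in SG, with -0.24, 0.50 and -0.86. Cxcl10, an interferon-induced chemokine, had 2.01 in members and 0.48 in the others, but -0.74 in members without any leukocyte marker UMI. Pthlh, a parathyroid hormone-like factor, had 1.53 in members and 0.70 in the others. Dkk2, Bmp2, Aldh3a1, Cxcl10 and Pthlh stood below 20 CPM in CT members. They passed the 20 CPM limit for named genes through SG members alone, so their ratio in members could only be above 0.

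The lowest ratios were shared with the other tumour cells. Dlgap2, a synaptic scaffold gene, stood at 2.68 CPM in SG and 25.9 CPM in CT members, and at 5.12 CPM in the other SG and 40.1 CPM in the other CT cells. Pmepa1, an inhibitor of TGF-beta signalling, stood at 19.5 CPM in SG and 56.9 CPM in CT members, and at 28.1 CPM in the other SG and 56.7 CPM in the other CT cells. Anxa8, Plxdc1, Osbpl7, Fkbp11 and Klk10 had log2 ratios between -1.30 and -0.96 in members and between -1.37 and -0.77 in the others. AY036118, which had -1.08 in members and -1.38 in the others, overlaps ribosomal RNA sequence in the annotation. Dlgap2, Pmepa1, Anxa8, Plxdc1, Osbpl7, Klk10 and, named below, Otud6b stood below 20 CPM in SG members. They passed the 20 CPM limit for named genes through CT members alone, so their ratio in members could only be below 0. The genes with the lowest members' ratio against that of the others were 4921524J17Rik (-0.54 in members and 0.042 in the others), Nnmt, a nicotinamide methyltransferase (-0.040, which turned positive under 5 of the alternatives, and 0.53), Pmepa1, Otud6b, a deubiquitinase (-0.39 and 0.084), and Gm14325 (-0.18 and 0.28).

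**Figure D5:**
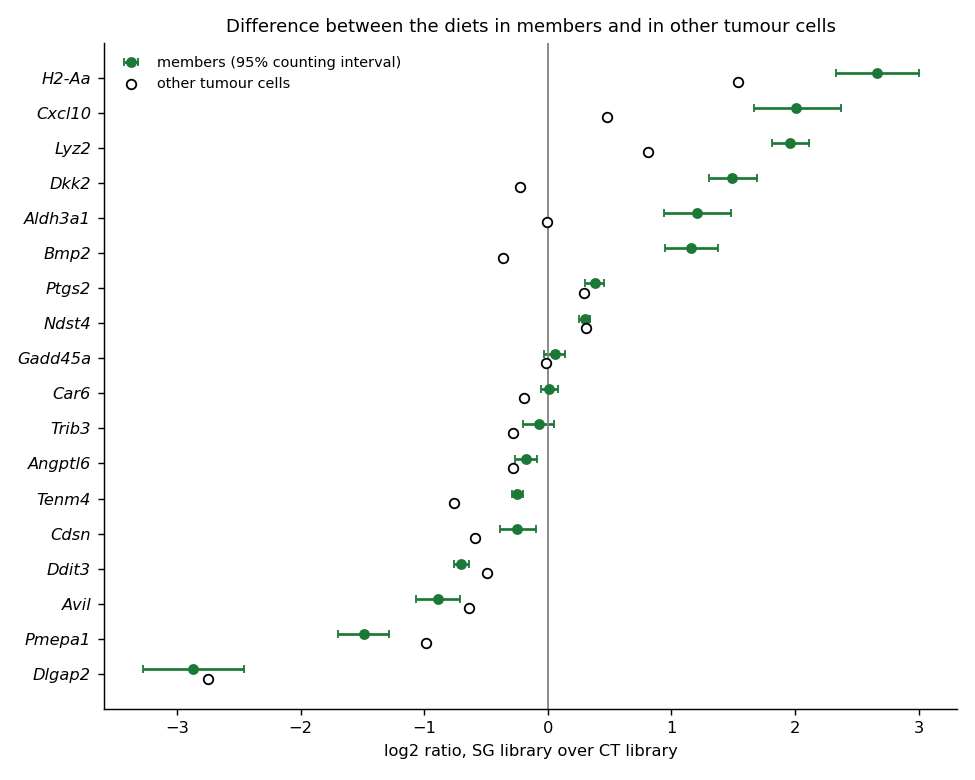
Log2 ratio of SG over CT (horizontal axis) in members (filled points with 95% counting intervals) and in other tumour cells (open points) for score genes, stress genes and genes with large ratios. Gadd45a and Car6 lie near 0 in members, Ddit3 lies at -0.70, and Dkk2 and Bmp2 lie right of 0 in members and left of 0 in the other tumour cells.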

How the data were processed

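The deposited matrices hold raw UMI counts per gene and cell barcode. The authors made these counts with Cell Ranger, version 7.0.1 per the file headers and 2.2.2 per the submitters' processing notes, with the mm10 genome. The sources used here do not state how introns and strand were handled. The protocol text in the labels speaks of human heart tissue, which disagrees with the mouse tumour fields, so the dissociation steps are not repeated.

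The files listed 32285 genes. For 40 symbols listed under 2 IDs, Ddit3 among them, the ID with more UMIs was used. Cells were filtered and gated as stated above, and no doublet caller was run. UMIs were summed per class and library and expressed as CPM with Python 3.11.15, numpy 2.4.6, scipy 1.17.1 and pandas 2.3.3, and figures used matplotlib 3.10.9. Levels have exact Poisson intervals, ratios exact conditional ones and shares Clopper-Pearson ones, all at 95%. Genes counted as tested had at least 10 CPM in members or other tumour cells of each library. Past the fold meant 2-fold in both libraries between classes, and 1.5-fold between diets among genes with 10 CPM in members of either library. Named genes had at least 20 CPM and were the 15 highest and 15 lowest between classes by the smaller ratio, the 8 highest and 8 lowest between diets, the 5 largest and 5 smallest differences of the diet ratio, the score genes, Ddit3 and Gadd45a. Genes of the lists serve as examples of their group. The members, gene lists and tests were chosen with earlier results of these data known. In all, 16 alternatives were tried, 13 planned and 3 added after seeing the data, and a limit on the level over all tumour cells was added for the lists alone.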

Additional observations from a re-analysis of the deposited data

Results flagged for a closer look

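For the 3 genes flagged here the diet ratio had opposite signs in members and in the other tumour cells. The difference was not tested and rests on 1 library per diet. Dkk2 and Bmp2 reached the 20 CPM limit for named genes through SG members alone, and Otud6b through CT members alone. That fixed the sign of their ratio in members. Dkk2 had a log2 ratio of SG over CT of 1.49 in members and -0.23 in the others. Bmp2 had 1.16 in members and -0.36 in the others. Otud6b had -0.39 in members and 0.084 in the others. The signs were also opposite for other named genes. These included 4921524J17Rik (-0.54 in members and 0.042 in the others), Gm14325 (-0.18 and 0.28), Nnmt (-0.040 and 0.53) and Aldh3a1 (1.21 and -0.006). Car6 had 0.012 and -0.19, and Gadd45a had 0.058 and -0.013.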

How the results depend on the processing

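With 1 library per diet no value could be checked against the spread between animals, and depth per cell was lower in SG. No paired analysis was possible because each diet had 1 library and no test was made, and no replicate could be left out. In all 16 alternatives the ratios of Ddit3 and Gadd45a stayed above 1 on the log2 scale in both libraries, and the medians of the stress response, synthetase, transporter, interferon, mitosis, S phase, hypoxia and glycolysis lists kept their sign, the stress response between 0.49 and 0.64 in SG and between 0.51 and 0.62 in CT. Of all list medians under the alternatives, marker and programme lists included, 1075 moved by at most 0.1 and 234 by more or across 0, and 72 took the other sign, 34 between classes and 38 between diets. Of these 72, 63 were under 0.1 as reported. Among lists of 10 or more tested genes, the other sign between classes came up for oxidative stress (1 alternative in SG), ribosomal proteins (1 in SG and 2 in CT), epithelial and mesenchymal identity (3 in SG) and heparan sulphate genes (1 in SG and 11 in CT). Of the named genes' values 874 moved by less than their counting interval, 419 moved by more and 6 changed sign. The causes of these shifts were not tested.

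For the top 5% the share ratio was 0.520, 100 genes were 2-fold lower, and Ddit3 had 1.58 and Gadd45a 2.06 in SG. For the top 20% the share ratio was 0.696, 43 genes were higher and 8 lower, Ddit3 had 1.20 in SG and 1.64 in CT, and Gadd45a 1.66 in SG and 1.79 in CT. With the score from cells thinned to 3000 UMIs the share ratio was 0.623, 22 genes were lower, Ddit3 had 1.24 in SG and 1.52 in CT, and Gadd45a 1.64 in SG and 1.72 in CT. With the gate at 20 per 10,000 Ddit3 had 1.64 and Gadd45a 2.06 in SG. Without possible doublets Ddit3 had 1.60 in SG, and with the top 10% taken within each library 1.33. With a pseudocount of 10 CPM 39 genes were higher and 12 lower, 95 and 31 were past the fold between diets, Ddit3 had 1.33 in SG and 1.55 in CT, and Gadd45a 1.72 in SG and 1.66 in CT. Without a filter on low values 88 genes were lower, and 636 were higher and 256 lower between diets. With CPM taken without mitochondrial and ribosomal protein genes 201 genes were higher and 111 lower between diets. With members chosen on one random part of each cell's UMIs and measured on the other, Ddit3 had 1.56 in CT.

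The other 3 alternatives were added after seeing the data, as was a 10 CPM limit over all tumour cells of each library, applied to the lists alone. Under that limit 23 of 23 stress response genes were higher, with medians of 0.56 and 0.59, 9 of 11 transporters, with 0.42 and 0.49, and 9 of 15 p53 target genes, with 0.18 and 0.17. With the score without Ndst4 the share ratio was 0.505, 74 genes were lower, and Ddit3 had 1.46 and Gadd45a 2.05 in SG. In cells with no leukocyte marker UMI, by a wider set of genes than the leukocyte list, 91 genes were lower. There 513 were higher and 293 lower between diets, and Ddit3 had 1.5 and Gadd45a 1.64 in SG. There the diet ratio of Cxcl10 in members was -0.74. Outside mitosis 116 genes were lower, Ddit3 had 1.62 in SG, and Gadd45a 1.85 in SG and 1.67 in CT. The diet ratio of Nnmt in members turned positive for the top 5% (0.12), the top 20% (0.11), the thinned score (0.001), the gate at 20 per 10,000 (0.063) and the score without Cdsn (0.001).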

Other observations

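Relatives of the score genes differed among themselves. Of the heparan sulphate genes, Ndst3, a paralogue of Ndst4 that acts on the same chain, stood at 242 CPM in SG members and 102 CPM in the other SG tumour cells, and at 203 CPM in CT members and 89.9 CPM in the others. Glce, the epimerase of the chain, stood at 50.9 CPM in SG members and 23.4 CPM in the others, and at 60.5 CPM in CT members and 28.4 CPM in the others. These were the 2 genes past 2-fold among the 11 tested, against 0.919% of all tested genes, and the list's medians were 0.037 in SG and -0.004 in CT. The teneurin Tenm3 had log2 ratios of 0.54 in SG and 0.18 in CT, while the carbonic anhydrase Car5b had -0.27 in SG and -0.23 in CT. Gsn, the gelsolin to which advillin is related, stood at 81.5 CPM in SG members and 175 CPM in the others, and at 65.4 CPM in CT members and 145 CPM in the others.

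Matrix genes were lower in 10 (62.5%) and higher in 4 (25%) of the 16 tested in both libraries, against 43.6% lower and 39.5% higher over all tested genes, with medians of -0.47 in SG and -0.51 in CT. Col6a1 and Pcolce, a collagen chain and an enhancer of procollagen processing, had -1.49 and -0.99 in SG and -1.40 and -0.88 in CT. Of the higher ones, Timp1, an inhibitor of matrix proteases, and Spp1, osteopontin, had 0.54 and 0.50 in SG; Spp1 alone carried most of the list's UMIs. Sterol and fatty acid genes were lower in 17 (89.5%) and higher in 1 of the 19 tested, with medians of -0.25 in SG and -0.47 in CT, and Insig1, a sterol sensor, had -0.90 in SG and -1.28 in CT. Of these 19, 2 reached the 10 CPM limit in the other tumour cells alone in at least 1 library, as did 1 of the 16 matrix genes. They could not count as higher. Of 10 epithelial and mesenchymal identity genes tested 4 were higher and 4 lower in both libraries, with medians of 0.067 in SG and -0.10 in CT. Snai2 reached the 10 CPM limit in members alone, and 1 gene in the other tumour cells alone, in at least 1 library. With the limit set over all tumour cells 3 of 9 were higher and 4 lower, with medians of 0.005 and -0.11. Vim, the intermediate filament vimentin, stood at 4149 CPM in SG members and 6555 CPM in the others, and at 3467 CPM in CT members and 5702 CPM in the others. Zeb2, a repressor of epithelial genes, stood at 465 CPM in SG members and 319.8 CPM in the others, and at 383 CPM in CT members and 276 CPM in the others.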
